A study of Homo sapiens with 4 samples.

Results

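The TOX family is made up of TOX, TOX2, TOX3 and TOX4, and its members were taken as the genes with these names among the 33880 genes of the expression table, which gave 4 of 33880 genes. Their RNA was measured in KGN cells, an established line from a human granulosa cell tumor, in 4 libraries. In the LV-TOX3 group (2 libraries), the cells had been infected with a lentivirus carrying full-length TOX3 with a FLAG tag, in the plasmid GV492. In the LV-CON group (2 libraries), the cells had received the control lentivirus. Both groups had puromycin resistance from the virus, and both were given virus diluted 1 to 200 and 2 mg/ml puromycin over 2 passages. The transgene was driven by a ubiquitin promoter, and the sources used here do not say whether the insert held untranslated regions, nor what share of the cells carried the virus. A bulk RNA level does not tell fewer cells expressing a gene apart from less RNA per cell. The comparison asks what overexpression of TOX3 does to the RNA of granulosa-like cells, and for its relatives it gives the amount of each RNA with and without added TOX3.

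The TOX proteins are nuclear proteins with a single HMG box, a fold that binds and bends DNA. TOX is best known from T cells, where it acts in their development in the thymus and in exhausted T cells. TOX2 was first known in the rat as GCX-1, a protein of ovarian granulosa cells. TOX3 is a susceptibility gene for breast cancer, its protein has a glutamine-rich end, and it binds the transcription factor CREB and the coactivators CBP and CITED1. TOX4 belongs to the PTW/PP1 phosphatase complex, in which it joins PPP1R10, WDR82 and a catalytic subunit of protein phosphatase 1.

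The members are most alike in 1 stretch of their proteins, which the sequences show. In the GENCODE v44 annotation of hg38, the representative transcripts encode 576 residues (TOX3), 621 (TOX4), 506 (TOX2) and 526 (TOX). Aligned over their whole length, TOX3 shared 50.4% of aligned residues with TOX, 44.9% with TOX2 and 43.3% with TOX4. The most alike ungapped stretch of 69 residues covered residues 248 to 316 of TOX3, where all 69 residues were the same in TOX4, 67 in TOX and 66 in TOX2. In each of the 4 genes this stretch was split in the same way over exons 5 and 6, into 165 and 42 bases. The coding sequence of the stretch is given for TOX3 (chr16:52444315-52446158, minus strand), TOX4 (chr14:21489239-21492337, plus strand) and TOX2 (chr20:44054362-44064818, plus strand), joined over the intron, in hg38. They are shown because they encode the part in which the proteins are most alike. The transcripts were not searched for the stretch most alike in bases. Capitals mark the bases that differ from TOX3.
TOX3: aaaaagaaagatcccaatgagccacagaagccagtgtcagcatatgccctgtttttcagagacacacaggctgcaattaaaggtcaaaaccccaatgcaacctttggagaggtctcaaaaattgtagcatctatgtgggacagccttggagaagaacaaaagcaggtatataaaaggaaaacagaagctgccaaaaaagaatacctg
TOX4: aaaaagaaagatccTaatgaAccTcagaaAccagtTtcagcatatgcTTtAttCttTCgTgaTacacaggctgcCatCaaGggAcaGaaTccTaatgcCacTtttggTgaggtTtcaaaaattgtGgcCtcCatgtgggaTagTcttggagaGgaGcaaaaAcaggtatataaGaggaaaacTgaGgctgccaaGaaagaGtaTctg
TOX2: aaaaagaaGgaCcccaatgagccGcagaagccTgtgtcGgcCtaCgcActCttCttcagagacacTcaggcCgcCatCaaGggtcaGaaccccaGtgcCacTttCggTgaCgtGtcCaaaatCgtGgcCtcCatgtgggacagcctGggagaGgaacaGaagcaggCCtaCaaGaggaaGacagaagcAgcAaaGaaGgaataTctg
Even here the transcripts were not the same. TOX4 had 169 of 207 bases in common with TOX3 (81.6%), although its residues were identical, and TOX2 had 166 (80.2%) and TOX 163 (78.7%). The longest run of coding bases that TOX3 shared with another member was 15 bases with TOX and 14 with TOX2 and TOX4, against reads of 150 nt.

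The proteins were less alike outside this stretch, and more so after it than before it. In windows of 30 residues inside it, identity to TOX3 was at least 93.3% for TOX, 90.0% for TOX2 and 100% for TOX4. In windows wholly before it, the median identity was 43.3% for TOX, 33.3% for TOX2 and 40.0% for TOX4, with single windows at up to 83.3% for TOX, 66.7% for TOX2 and 73.3% for TOX4. In windows wholly after it, the median identity was 23.3% for TOX, 16.7% for TOX2 and 26.7% for TOX4. TOX3 was the member richest in glutamine, at 17.2% of residues with a longest run of 10, against 8.37% in TOX4 (longest run 3), 5.14% in TOX2 (2) and 8.37% in TOX (2). TOX2 stood apart in base composition, with a coding GC content of 63.8%, against 53.4% in TOX3, 51.2% in TOX4 and 51.7% in TOX.

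**Figure D1:**
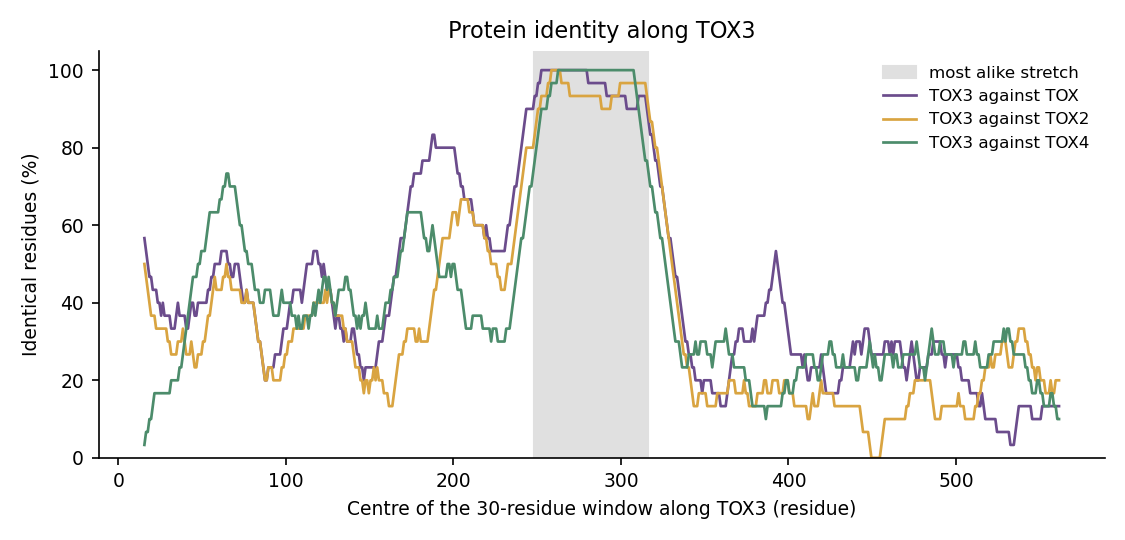
Share of residues (%) identical to TOX3 in windows of 30 residues, plotted at the window centre along the TOX3 protein (residue number), with 1 line each for TOX, TOX2 and TOX4 and the most alike stretch in grey. All 3 lines reach 100% at the grey stretch of residues 248 to 316. In windows wholly before it they peak at 66.7% to 83.3%, and in windows wholly after it their medians are 16.7% to 26.7%. Windows that cross an edge of the stretch, some centred outside the grey, are not counted in these values.

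The study's quantitative PCR primers for TOX3 lay outside the shared stretch, in exon 3, and are shown because they decide which transcript that assay reads. Both are 20 bases long and matched the coding sequence of the representative TOX3 transcript, the forward primer at chr16:52464058-52464077 and the reverse primer at chr16:52463959-52463978 (hg38).
TOX3-F: caagccctcagcgatccatt
TOX3-R: acgccatcttgttccacgag
The amplicon spans 119 bases of coding sequence. The closest site in any annotated transcript of another member had 6 mismatches to the forward primer in TOX and 7 in TOX2 and TOX4, and 7 mismatches to the reverse primer in each of the other members. The forward primer matched 4 of the 5 annotated TOX3 transcripts and the reverse primer 3.

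The libraries held 16403371 to 17858746 reads, as recovered from the deposited RPKM (reads scaled to gene length and library total). The labelled cell type was checked against 12 granulosa markers, none of which was at 0 and 10 of which averaged at least 0.5 RPKM. Of these 10, INHA (0.845 RPKM in LV-TOX3, 0.897 RPKM in LV-CON) and WT1 (0.893 and 0.990 RPKM) had group means below 1 RPKM. The ovarian transcription factor gene FOXL2 averaged 11.0 RPKM in LV-TOX3 and 10.7 RPKM in LV-CON, and the steroidogenic factor gene NR5A1 averaged 21.2 RPKM in LV-TOX3 and 21.5 RPKM in LV-CON, whereas NR5A2 and AMHR2 were low. Of 8 T cell markers, 3 had a row. CD8A was at 0 in all 4 libraries and CD4 was at most 0.0376 RPKM. The pan-leukocyte gene PTPRC had 0.501 and 0.663 RPKM in LV-TOX3, against 0.545 and 0.763 RPKM in LV-CON. Markers of other cell types were expressed in part. Of 7 breast luminal markers, 4 averaged at least 0.5 RPKM, with KRT18 at 547 RPKM in LV-TOX3 and 521 RPKM in LV-CON. Of 5 neuron markers, 2 did, with MAP2 at 7.22 RPKM in LV-TOX3 and 7.72 RPKM in LV-CON. Genes were compared with limma on log2(RPKM + 0.1) for the 14184 genes whose mean reached 0.5 RPKM, a scale on which changes of weakly expressed genes come out too small. The sequenced samples are described as independent duplicates, without a statement that each had its own culture, and p-values therefore cover only how far these samples differed, a spread that may be technical. The smallest p of an exact permutation test in this design is 0.33.

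TOX3 RNA was detected only in the cells given the TOX3 virus. TOX3 (ENSG00000103460) lies on the minus strand of chromosome 16 from 52436417 to 52547802. It had 1586 and 1428 reads in the LV-TOX3 libraries (replicates 1 and 2), against 0 and 0 reads in the LV-CON libraries. These are 18.1 and 17.3 RPKM in LV-TOX3 (17.7 ± 0.566, SD, n = 2), with exact 95% Poisson intervals of 17.2 to 19.0 and 16.4 to 18.2 RPKM, against 0 RPKM in both LV-CON libraries. Such intervals, and the floors below, cover counting error only. Both LV-TOX3 libraries were high and close to each other and lay above both LV-CON libraries, as was so for 17% of all tested genes. At these depths a count of 0 was taken to allow up to 3 reads, or floors of 0.0336 and 0.0334 RPKM in LV-CON replicates 1 and 2. The TOX3 mean in LV-TOX3 was 527 times the larger of these per-library floors. This is no strict minimum, as the exact 95% Poisson intervals of 0 reads end higher, at 0.0413 and 0.0411 RPKM. TOX3 matched the group labels in all 4 libraries.

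In LV-TOX3, the RNA of TOX3 lay above 84.3% and 82.9% of the tested genes in replicates 1 and 2. It was the only one of the 3 members tested to pass an adjusted p of 0.05, and the only gene of all those tested, 1 of 14184 or 0.00705% (log2 fold change 7.48, standard error 0.19, adjusted p = 0.0031 from limma). TOX3 is the gene that the virus carried, so this result was set by the design. It checks the delivery and is no evidence of a response of the cells. Both LV-CON values were 0 RPKM, so that group added no spread to the fit. The fitted value depends on the pseudocount and is no bound. The next largest log2 fold change among tested genes was 4.58. The adjusted p from limma did not hold with any 1 library left out (0.149 to 0.913), without the filter on low values (0.080) or with a pseudocount of 0.01 (0.072), and the direction held in each of these fits. The length behind the deposited value was 5031 bases, and over the coding length of 1731 bases alone TOX3 would be at 52.6 and 50.3 RPKM in LV-TOX3, a value given because the sources leave unstated whether the insert held untranslated regions.

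The chromosomal surroundings of TOX3 did not share this level. CASC16, a long noncoding RNA gene whose nearer end lies 4282 bases from TOX3, had 0 and 1 reads in LV-TOX3, against 0 and 0 reads in LV-CON. The nearest gene with a row on the other side, HNRNPA1P48, lies 789285 bases away and had 63 and 98 reads in LV-TOX3, against 106 and 113 reads in LV-CON (log2 fold change -0.39, adjusted p = 0.81 from limma).

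**Figure D2:**
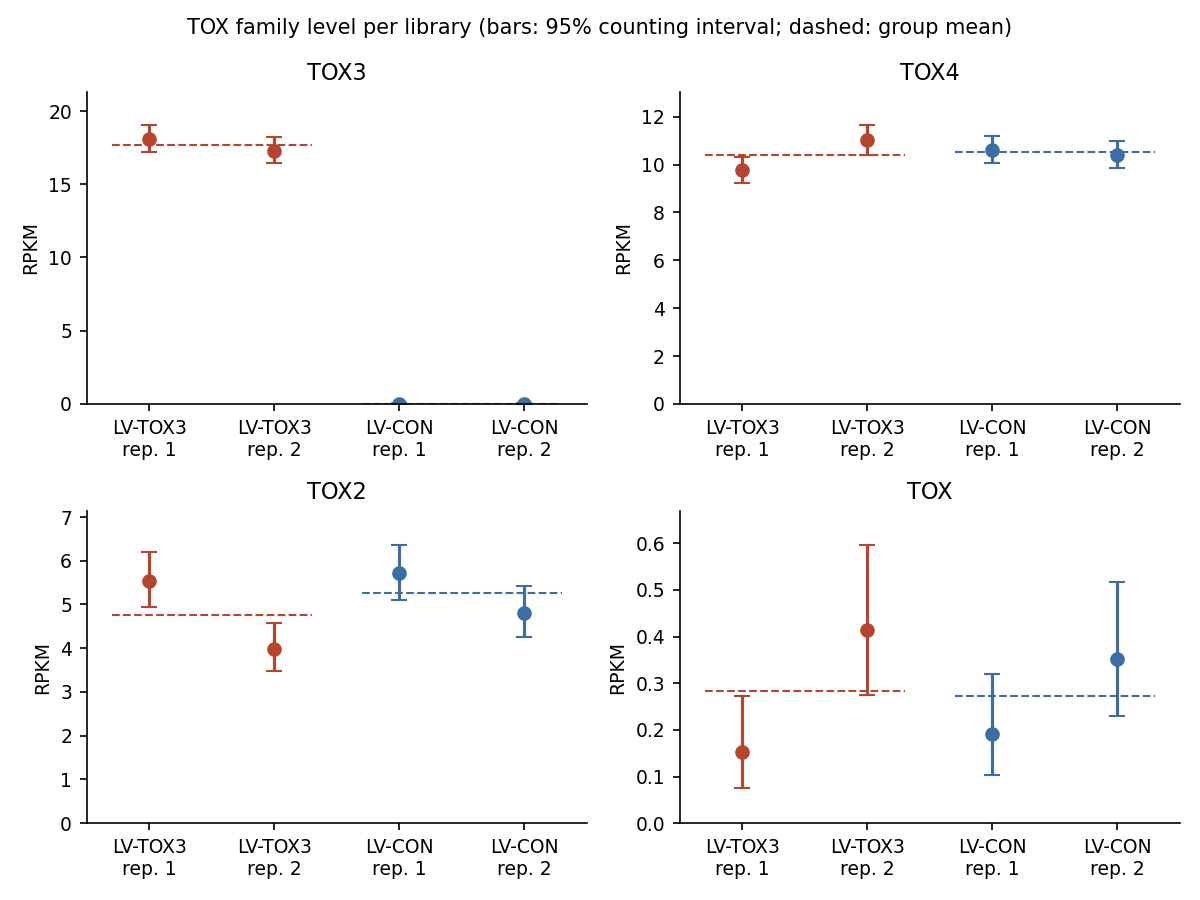
RPKM (vertical axis, a separate scale in each panel, starting at 0) of the 4 TOX family genes in each LV-TOX3 and LV-CON library, with exact 95% Poisson intervals from the recovered reads as bars and the group mean as a dashed line. TOX3 is at 18.1 and 17.3 RPKM in LV-TOX3 and at 0 in LV-CON, whereas the groups overlap for TOX4, TOX2 and TOX.

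TOX4, the phosphatase complex member, was at about the same level in both groups. TOX4 (ENSG00000092203) lies on the plus strand of chromosome 14 from 21476597 to 21499175. It had 9.77 and 11.0 RPKM in LV-TOX3 (1206 and 1281 reads), against 10.6 and 10.4 RPKM in LV-CON (1337 and 1319 reads). The lowest and the highest of the 4 values were both in LV-TOX3, so the groups overlapped. The means were 10.4 ± 0.881 RPKM in LV-TOX3 and 10.5 ± 0.143 RPKM in LV-CON (SD, n = 2 each). On the log2 scale limma gave a difference of -0.02 (standard error 0.09, adjusted p = 0.98), with a 95% interval of -0.26 to 0.22, or 0.836 to 1.16 times the LV-CON level. Of all tested genes, 89.8% had a larger absolute log2 fold change. Without LV-TOX3 replicate 1 the value was 0.066.

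TOX4 overlaps METTL3, an RNA methyltransferase gene, and RAB2B, a small GTPase gene, both on the opposite strand, and no source used here says whether the counting used strand, so reads in the shared ends cannot be told apart. METTL3 had 6.43 and 6.51 RPKM in LV-TOX3, against 6.37 and 7.08 RPKM in LV-CON, a log2 fold change of -0.05. RAB2B had 5.09 and 5.83 RPKM in LV-TOX3, against 5.91 and 5.06 RPKM in LV-CON, a log2 fold change of -0.01. The next genes with a row to either side of TOX4, CHD8 and SALL2, had log2 fold changes of -0.07 and 0.25, and none of these 4 genes passed the adjusted p from limma.

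TOX2, the member first described in granulosa cells, was expressed in every library, and its 2 groups overlapped. TOX2 (ENSG00000124191) lies on the plus strand of chromosome 20 from 43914852 to 44069616. It had 5.54 and 3.99 RPKM in LV-TOX3 (311 and 211 reads), against 5.71 and 4.81 RPKM in LV-CON (327 and 277 reads). Replicate 1 was the higher library in each group, and the Poisson intervals of the LV-TOX3 replicates, 4.94 to 6.19 and 3.47 to 4.57 RPKM, did not overlap, so the replicates differed beyond counting error. The means were 4.77 ± 1.10 RPKM in LV-TOX3 and 5.26 ± 0.637 RPKM in LV-CON (SD, n = 2 each). The log2 fold change of TOX2 from limma was -0.15, with a standard error of 0.19, an adjusted p of 0.91 and a 95% interval of -0.64 to 0.33, or 0.642 to 1.26 times the LV-CON level. Of all tested genes, 38.8% had a larger absolute log2 fold change. Without LV-TOX3 replicate 2 it was 0.078, and without LV-TOX3 replicate 1 it was -0.39.

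The neighbour of TOX2 with reads in all 4 libraries, JPH2, which encodes a junction protein of muscle cells, had 8.43 and 10.6 RPKM in LV-TOX3, against 8.91 and 11.3 RPKM in LV-CON. In JPH2 the higher library of each group was replicate 2, the opposite of TOX2. On the other side LINC01728 had 1 read in all, and RN7SL443P, which lies within TOX2, also had 1 read in all.

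TOX, the member known from T cells, was near the limit of detection. TOX (ENSG00000198846) lies on the minus strand of chromosome 8 from 58805412 to 59119147. It had 11 and 28 reads in LV-TOX3, against 14 and 26 reads in LV-CON. These are 0.153 and 0.413 RPKM in LV-TOX3 (0.283 ± 0.184, SD, n = 2), against 0.191 and 0.352 RPKM in LV-CON (0.272 ± 0.114, SD, n = 2). The LV-CON values lay between those of LV-TOX3, so the groups overlapped. TOX was below the filter on low values, and in the limma fit without the filter the log2 fold change was -0.01 with an adjusted p of 1.00, a standard error of 0.54 and a 95% interval of -1.56 to 1.54. That interval spans 0.339 to 2.91 times the LV-CON level, and it reflects the spread between the libraries as well as the few reads. With 1 library left out, the log2 fold change ran from -0.52 to 0.50.

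TOX reads were above the floor of 3 in every library. Its neighbour with reads, NSMAF, an adaptor gene of the sphingomyelinase pathway, had a log2 fold change of -0.03 (adjusted p = 0.96 from limma). AC090152.1, which overlaps TOX on the opposite strand, was at 0 in all 4 libraries.

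The order of levels in RPKM, a scale per length, was TOX3, TOX4, TOX2 and TOX in both LV-TOX3 libraries. In both LV-CON libraries it was TOX4, TOX2, TOX and, at 0, TOX3. No neighbours in either order overlapped between their libraries. The closest neighbours by ratio were TOX3 and TOX4 in LV-TOX3, at 17.3 RPKM or more against 11.0 RPKM or less. Summed over the family, the level was 33.6 and 32.7 RPKM in LV-TOX3, against 16.5 and 15.6 RPKM in LV-CON. Without TOX3 the sum was 15.5 and 15.4 RPKM in LV-TOX3, against 16.5 and 15.6 RPKM in LV-CON. TOX3 made up 53.9% and 52.9% of the family sum in LV-TOX3. The sums and shares rest on the lengths behind the deposited values, such as 5031 bases for TOX3 and 7091 for TOX4. Over the coding length alone, TOX3 would be at 52.6 and 50.3 RPKM in LV-TOX3. All reads of TOX4 over its coding length would give 37.1 and 41.9 RPKM there, and those of TOX2 11.7 and 8.46 RPKM, in the same order. The TOX4 and TOX2 values take in any reads in untranslated regions. They are therefore upper limits, not matched to a TOX3 insert without such regions. TOX4 was the main member otherwise, with 29.1% and 33.7% of the sum in LV-TOX3, against 64.3% and 66.9% in LV-CON, a share that takes in the added TOX3. TOX2 held 16.5% and 12.2% in LV-TOX3, against 34.6% and 30.9% in LV-CON, and TOX at most 2.26% in any library.

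**Figure D3:**
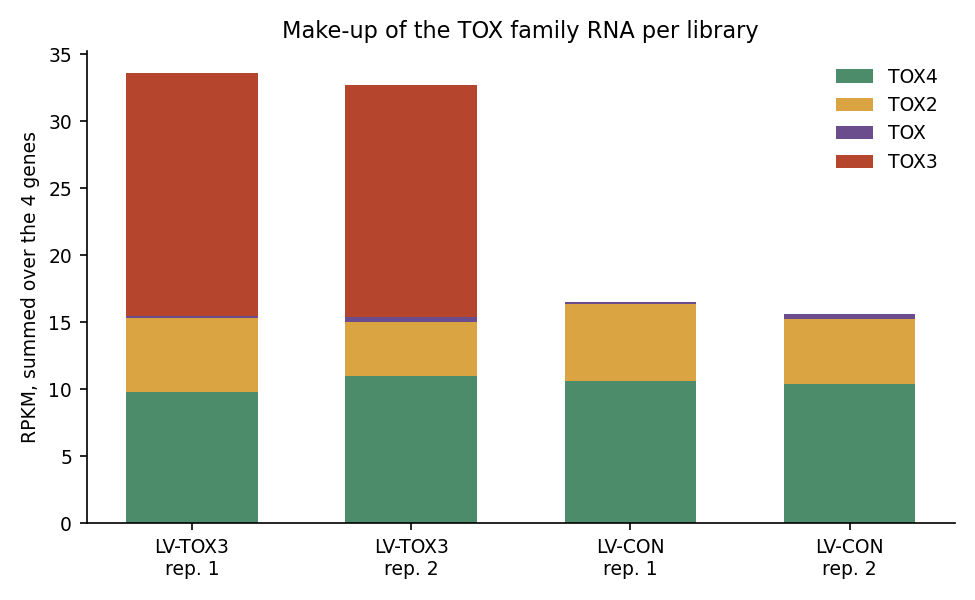
RPKM summed over the 4 TOX family genes (vertical axis, starting at 0) in each LV-TOX3 and LV-CON library, with each colour the RPKM of 1 gene. The values rest on the lengths behind the deposited RPKM, which may not be that of the TOX3 insert. The sum is 33.6 and 32.7 RPKM in LV-TOX3 and 16.5 and 15.6 RPKM in LV-CON, and the part without TOX3 is 15.4 to 16.5 RPKM in all 4 libraries.

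TOX2 and TOX differed between replicate numbers in the same direction in both groups. Replicate 2 over replicate 1 was 0.720 for TOX2 in LV-TOX3 and 0.842 in LV-CON. For TOX the ratio was 2.70 in LV-TOX3 and 1.85 in LV-CON. TOX4 went opposite ways, at 1.13 in LV-TOX3 and 0.981 in LV-CON. Over genes, libraries of different groups with the same number lay closer (chi-square per degree of freedom 7.16 and 8.11) than libraries of 1 group (9.67 in LV-TOX3 and 8.17 in LV-CON). Those of different groups and numbers lay farther apart (12.6 and 12.0). No source used here says what the number stands for, and its part in the values of TOX2 and TOX was not tested.

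By the distance of log2 values centred on their mean over the 4 libraries, the genes most like TOX4 were KLF3 (distance 0.00305), MTIF2 (0.0153) and PDCD7 (0.0177). Those most like TOX2 were AGTRAP (0.0266), CLN8 (0.0519) and NPTXR (0.0527). AGTRAP had 9.10 and 6.63 RPKM in LV-TOX3, against 9.60 and 7.91 RPKM in LV-CON. No gene came close to TOX3, for which the smallest distances were 2.95 (MIR23A), 3.0 (RNU6-100P) and 3.59 (MIR6827), small RNA loci with at most 5 reads in a library. These are likenesses over 4 values, ranked among 14184 genes.

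Partners and pathway genes of TOX family proteins were taken as 4 lists, and the other HMG-box genes, relatives by fold alone, as a further list, with 79 entries in all, of which 70 had a row and 52 were tested. None passed the adjusted p from limma (smallest 0.66). At an unadjusted p under 0.05, 6 were lower in LV-TOX3 (4 of them other HMG-box genes) and 0 higher, against 3.73% of all tested genes lower, 3.07% higher and 6.8% in either direction. In 10 of the 13 alternative fits at least 1 was higher, at most 2 with a library left out and 5 with limma-voom and a replicate block. The count in either direction was 3 in place of 6 without LV-CON replicate 2, without LV-TOX3 replicate 1 or without LV-TOX3 replicate 2. Among all tested genes the median log2 fold change was -0.01, and 46.8% had a log2 fold change above 0.

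The list of CREB and CBP/p300 coactivator partners, which holds the known partners of TOX3 and their relatives, had 10 tested genes, 8 above and 2 below a log2 fold change of 0, a median of 0.05 and none at an unadjusted p under 0.05. CREB1, the transcription factor that TOX3 binds, had 7.62 and 8.11 RPKM in LV-TOX3, against 7.05 and 6.88 RPKM in LV-CON. Its groups did not overlap, as was so for 37.6% of all tested genes, and its log2 fold change was 0.17 (adjusted p = 0.76 from limma). CITED4, ATF1 and CITED2 had log2 fold changes of 0.67, 0.14 and -0.12, with CITED4 below 1 RPKM. CITED1, the other named TOX3 partner, was at 0 and 0 RPKM in LV-TOX3, against 0.0960 and 0 RPKM in LV-CON.

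The PTW/PP1 phosphatase complex of TOX4 had 5 tested genes, 1 above and 4 below a log2 fold change of 0, with a median of -0.15. WDR82, its WD-repeat subunit, averaged 22.6 ± 0.458 RPKM in LV-TOX3 and 26.9 ± 1.40 RPKM in LV-CON (SD, n = 2 each), a log2 fold change of -0.25 at an unadjusted p of 0.021 and an adjusted p of 0.70 from limma. Over the fits with 1 library left out, the unadjusted p from limma ran from 0.030 to 0.089. PPP1CB, a catalytic subunit, went the other way, with a log2 fold change of 0.34. It averaged 23.8 ± 1.75 RPKM in LV-TOX3 and 18.9 ± 2.96 RPKM in LV-CON (SD, n = 2 each). Its unadjusted p was 0.0502 and its adjusted p 0.72 from limma. With 1 library left out, its log2 fold change ran from 0.18 to 0.50. The scaffold PPP1R10 and the catalytic subunit PPP1CC had log2 fold changes of -0.18 and -0.15.

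Calcineurin, NFAT and NR4A genes, which act upstream of or together with TOX in T cells, had 7 tested genes of 12, 5 above and 2 below a log2 fold change of 0, with a median of 0.05. None had an unadjusted p under 0.05. The calcineurin regulatory subunit PPP3R1 and the transcription factor NFAT5 each had a log2 fold change of 0.19. PPP3CB, a catalytic subunit, had a log2 fold change of 0.07.

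The estrogen receptor genes and classical estrogen targets, which TOX3 is known to act on in breast cancer cells, had 7 tested genes of 14, 3 above and 4 below a log2 fold change of 0, with a median of -0.05. ESR1, the receptor itself, was below the filter at 0.166 and 0.123 RPKM in LV-TOX3, against 0.126 and 0.129 RPKM in LV-CON. CCND1, the cyclin D1 gene, averaged 37.5 ± 2.57 RPKM in LV-TOX3 and 45.4 ± 4.55 RPKM in LV-CON (SD, n = 2 each), a log2 fold change of -0.27 at an adjusted p of 0.72 from limma. XBP1, BRCA1 and RARA had log2 fold changes of 0.13, -0.16 and 0.18.

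The other HMG-box genes had 23 tested genes, 7 above and 16 below a log2 fold change of 0 (13 below under median ratio scaling and under quantile normalization), with a median of -0.09. Of them 4 had an unadjusted p under 0.05, all lower in LV-TOX3 (3.73% of all tested genes), and 2 did without LV-CON replicate 2 or without LV-TOX3 replicate 1. HMGB2, a chromatin protein of dividing cells, averaged 59.7 ± 2.13 RPKM in LV-TOX3 and 73.1 ± 0.664 RPKM in LV-CON (SD, n = 2 each), a log2 fold change of -0.29. Its relative HMGB3 averaged 15.1 ± 0.406 RPKM in LV-TOX3 and 18.9 ± 0.136 RPKM in LV-CON (SD, n = 2 each), a log2 fold change of -0.32. SOX9, a transcription factor of the developing testis and of cartilage, had 4.35 and 5.02 RPKM in LV-TOX3, against 6.30 and 7.27 RPKM in LV-CON, a log2 fold change of -0.52. SSRP1, a subunit of the histone chaperone FACT, had a log2 fold change of -0.21. The adjusted p of these 4 genes from limma was 0.66 for HMGB2, HMGB3 and SOX9 and 0.72 for SSRP1.

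**Figure D4:**
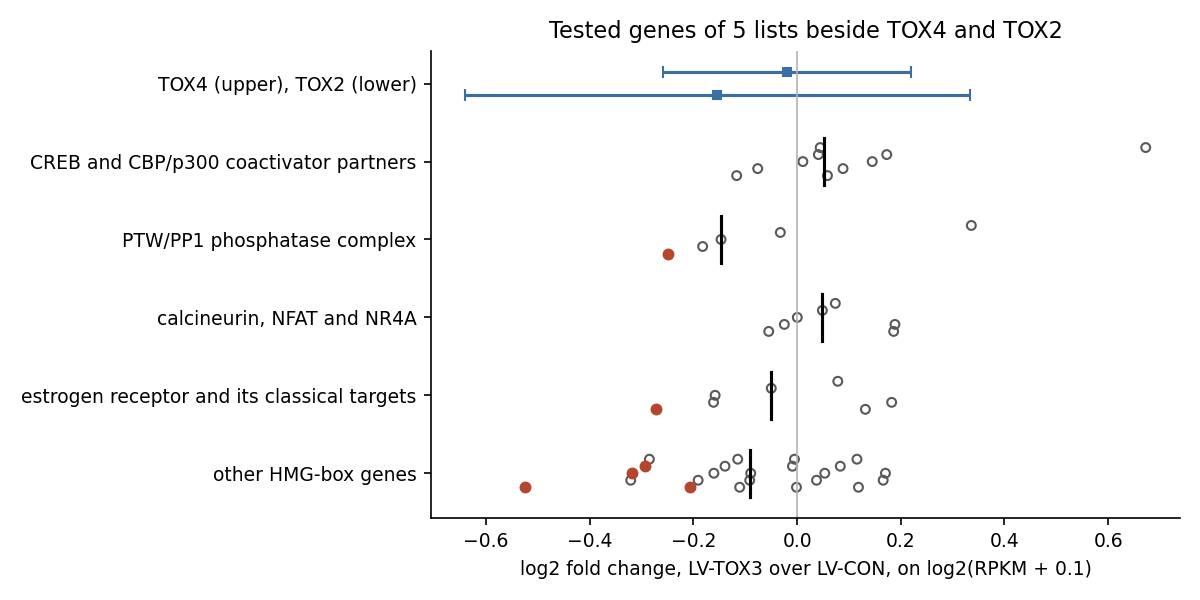
Log2 fold change, LV-TOX3 over LV-CON, on log2(RPKM + 0.1) of each tested gene of the 5 lists (circles, filled where the unadjusted p from limma is under 0.05), with the list median as a vertical bar, below TOX4 and TOX2 with their 95% intervals. The 6 filled circles are all negative, and the intervals of TOX4 (-0.26 to 0.22) and TOX2 (-0.64 to 0.33) include 0.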

How the data were processed

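Poly(A) RNA of KGN cells was sequenced as paired reads of 150 nt in 2 LV-TOX3 and 2 LV-CON libraries, grouped by their labels. The authors cleaned the reads (SOAPnuke), mapped them to hg38 (HISAT2), quantified them by expectation maximization (RSEM) and deposited RPKM values per gene and library. Tool versions: not given in the sources used here. For its own tests the study ran limma-voom and ComBat, and whether batch effects were removed from the deposited RPKM values is not stated. All 4 sample columns were used.

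Of the 29088 genes above 0, 29087 had values that were whole multiples of 1 read (relative tolerance 1e-12), so reads per gene were recovered. RSEM estimates need not be whole, so the tool behind the values is uncertain. Totals were 17413376 and 16403371 reads in LV-TOX3 and 17757132 and 17858746 in LV-CON.

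Genes were tested with limma (version 3.58.1, R 4.3.3, lmFit and eBayes with trend, two-sided, no block) on log2(RPKM + 0.1) over 14184 genes whose mean reached 0.5 RPKM, with Benjamini-Hochberg adjustment over all of them. TOX and other genes below that mean were taken from a fit without the filter. The limma step and the recovery, which is exact up to a whole factor per gene, were tested on simulated data. That factor was set from gene lengths where the GENCODE exon length was a whole multiple of the recovered length. No factor was applied otherwise, as for TOX3, TOX2 and TOX. Coordinates, transcripts, coding sequences and translations are those of GENCODE v44 on hg38, the primers those of the study, and proteins were aligned with Biopython 1.88. Other tools were Python 3.11.15, numpy 2.4.6, pandas 2.3.3, scipy 1.17.1 and matplotlib 3.10.9.

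The members and lists were chosen with earlier results of these data known. Named are the 4 members, their nearest and overlapping genes with a row, up to 4 tested genes of each list with the smallest p, the 3 genes most like each member in the filter, and the 3 genes highest in LV-TOX3 among those at 0 in LV-CON. CITED1, ESR1, SLC2A2 and the cell type markers named lie outside that rule and were named after their values were seen. Alternatives were other pseudocounts, filters and scalings, limma-voom on the recovered reads, the replicate number as a block, the coding length and each library left out.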

Additional observations from a re-analysis of the deposited data

How the results depend on the processing

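TOX3 kept its direction in every fit, with a log2 fold change of 4.22 (pseudocount 1) to 11.63 (limma-voom), as the LV-CON value is set by the pseudocount or prior. Its adjusted p from limma was above 0.05 with a pseudocount of 0.01 (log2 fold change 10.79, adjusted p = 0.072), without the filter (7.48, adjusted p = 0.080, over 29088 genes) and with 1 library left out (7.44 to 7.51), where a lone sample is assumed to vary like the others. Over its coding length the TOX3 mean in LV-TOX3 was 51.5 RPKM in place of 17.7. The number of genes past the adjusted p, 1 as reported, was 0 with a pseudocount of 0.01 (950 at an unadjusted p under 0.05, against 965 as reported), 0 without the filter (1760 at an unadjusted p) and 0 with each library left out (658 to 880 at an unadjusted p), whereas limma-voom gave 1.

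The direction of the other members turned. With 1 library left out, TOX4 ran from -0.11 to 0.066, TOX2 from -0.39 to 0.078 and TOX from -0.52 to 0.50, and TOX was also 0.0084 with a pseudocount of 1. No p of theirs passed in any fit. TOX has no value at a filter of 1 RPKM. The 6 list genes at an unadjusted p under 0.05 became 3 to 7 with 1 library left out.

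The labels number the replicates alike in both groups, but deviations of same-numbered libraries correlated by 0.19 over 14184 genes in only 2 pairs, so the numbers were not taken as pairs. By chi-square per degree of freedom, however, same-numbered libraries of different groups (7.16 and 8.11) lay closer than those within LV-CON (8.17) or LV-TOX3 (9.67). The replicate block gave 1757 genes at an unadjusted p under 0.05 from limma, against 965 without it. With the replicate block, limma called 1 gene, TOX3 (adjusted p = 0.0039), no other member was called (the block cannot move the fold changes in this balanced design), and 10 list genes had an unadjusted p under 0.05. Limma-voom with the replicate block, chosen after the data were seen, called 614 genes and put TOX at 0.042. It gave 16 list genes, and 2039 of all 14184 tested genes, at an unadjusted p under 0.05. TOX rests on 11 to 28 reads a library, and it differed 2.70 and 1.85 times between replicates in LV-TOX3 and LV-CON.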

Other observations

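TOX3 was 1 of 562 genes at 0 in both LV-CON libraries and above 0 in both LV-TOX3 libraries, and 468 genes were above 0 in both LV-CON libraries and at 0 in both LV-TOX3 libraries. The other genes of the first kind rested on few reads, with a median of 3 reads summed over LV-TOX3. The most was 15 reads, for SLC2A2, a glucose transporter gene, with 11 and 4 reads in LV-TOX3 and 0 and 0 reads in LV-CON. By RPKM in the lower LV-TOX3 library, the genes next to TOX3 were RNU6-100P (5 and 3 reads in LV-TOX3, 0 and 0 in LV-CON), MIR23A (4 and 2 reads in LV-TOX3, 0 and 0 in LV-CON) and MIR661 (2 and 2 reads in LV-TOX3, 0 and 0 in LV-CON), all short loci where 1 read is worth much RPKM.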
